A study of Mus musculus with 35 samples.

Results

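The 10 genes described here encode heat shock proteins of male germ cells and the factors that control them, taken by gene symbol out of the 24411 gene rows of the count tables. They were grouped by their known roles into germ cell forms (Hspa2, Hspa1l and Hspa4l), stress-induced HSP70 and its partner (Hspa1a, Hspa1b and Dnajb1), other cytosolic forms (the constitutive Hspa8 and Hsp90aa1, which is abundant in germ cells and also inducible) and transcription factors (Hsf1 and Hsf2). The study asked how RNA of spermatogenic cells changes when SMG6, an endonuclease of nonsense-mediated mRNA decay, is lost from germ cells.

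Long RNA was sequenced from spermatocytes (Spc) and round spermatids (RS) of adult mice, with 3 Smg6-cKO and 3 control libraries for each cell type, and from isolated chromatoid bodies (CBs) with 3 Smg6-cKO and 4 control libraries. Smg6-cKO mice were Smg6(fx/fx);Ngn3Cre+, in which Cre driven by the Ngn3 promoter deletes exon 9 of Smg6 in early spermatogonia after birth, before the stages studied. Controls were littermates without Cre, either Smg6(fx/fx);Ngn3Cre- or Smg6(fx/wt);Ngn3Cre-, so the controls also carried floxed alleles. All were on a mixed C57Bl/6J and SV129 background. Cells were enriched by sedimentation through a BSA gradient. CBs, the RNA-rich granules of haploid germ cells, were pulled down with an antibody against DDX4, and each CB isolation used several testes. Per the study's description, Smg6-cKO testes lack elongating spermatids, so the fractions of the genotypes need not hold the same mixture of stages.

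HSP70 proteins bind unfolded stretches of other proteins and release them in a cycle driven by ATP. J-domain proteins such as DNAJB1 bring clients and speed up hydrolysis, exchange factors such as the HSP110 proteins and BAG proteins reset the cycle, and HSP90 takes over part of the clients. In most tissues the constitutive HSPA8 carries this work, and HSF1 switches on Hspa1a, Hspa1b and other genes after heat. Male germ cells make forms of their own, HSPA2 in spermatocytes, HSPA1L in spermatids and the HSP110 protein HSPA4L, which need no heat.

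Hspa1l, Hspa1a and Hspa1b are neighbours on chromosome 17 (GRCm38, GENCODE vM21). Hspa1l lies at 34972703 to 34979285 on the plus strand, Hspa1a at 34969190 to 34972156 on the minus strand and Hspa1b at 34956436 to 34959238, also on the minus strand. Hspa1l and Hspa1a start head to head, with 546 bases between the annotated starts. An HSP70 form of round spermatids and a stress-induced form thus begin beside each other, and these promoters are shown because in round spermatids Hspa1l had the lowest and Hspa1b the highest log2 fold change among the members. Promoter windows of RefSeq (GRCm38.p6, 250 bases before to 50 bases after each start) were at hand for 7 of the 10 members, Hspa2, Hspa1l, Hspa4l, Hspa1a, Hspa1b, Dnajb1 and Hsf2. They were searched for a pair of inverted heat shock element units, GAANNTTC or TTCNNGAA, each of which reads the same on both strands and which can overlap each other in a longer run of units. Among the 7 members, 2 held a match, Hspa1a and Hspa1b, and 15.1% of all 32851 windows of that length held one. The matches lay 104 to 97 bases before the start in both genes, printed 5′ to 3′ with the matching bases in capitals, the first at chr17:34972242-34972271 and the second at chr17:34959324-34959353, both on the minus strand:
Hspa1a: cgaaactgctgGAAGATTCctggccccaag
Hspa1b: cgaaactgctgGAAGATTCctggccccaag
The 2 stretches were identical, and the whole windows of Hspa1a and Hspa1b differed at 4 of 300 bases. No match says only that these letters are not in a window, and no binding was measured.

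This likeness extends to the transcripts and limits how the counts of the pair can be read. Of all stretches of 75 bases, the read length of the cell libraries, in the annotated transcripts of Hspa1a, 54.2% also occur in another gene, and for Hspa1b 55.8% do. The share was 32.8% for Hspa8, most often with Gm15459 (30.2%), and 42.8% for Hsp90aa1, most often with Gm12346 (36.2%). For Hspa1l it was 7.09%, shared with Hspa1a. In Hspa2, Dnajb1 and Hsf1 no stretch of that length was shared, and in Hspa4l and Hsf2 0.0847% and 0.334% were. With stretches of 150 bases, the read length of the CB libraries, 39.7% were shared for Hspa1a and 40.5% for Hspa1b. For Hspa8, Hsp90aa1 and Hspa1l these shares were 22.8%, 28.5% and 3.62%. Reads came in pairs, and single stretches do not take the mate into account. Counts of Hspa1a and Hspa1b are therefore uncertain between these genes, and those of Hspa8 and Hsp90aa1 between each gene and its copies.

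Libraries of cells held 36419197 to 47355837 counts on genes and those of CBs 2705277 to 12103906. Levels are given as CPM, counts scaled to a common library size, set with TMM over the 12 cell libraries together and over the 7 CB libraries by themselves. CB libraries are numbered here by their order in the count table, since their column numbers do not match the sample titles one to one. They were made with another kit, so their levels are not set against those of cells. Fold changes come from edgeR's quasi-likelihood test, two-sided, fitted on all genes of the libraries compared and scaled within them, and "passed" means an adjusted p (Benjamini-Hochberg over all genes tested) of at most 0.05. Ratios of the printed levels can therefore differ a little from a fitted fold. The SE of a fold change was worked back from the test, as the size of the log2 fold change over the square root of the F statistic. Smg6 itself ranged from 182 to 203 CPM in the Smg6-cKO cell libraries and from 109 to 235 CPM in control ones, and its counts over the whole gene do not check the deletion of 1 exon. Markers of round spermatids summed to 5380 to 5720 CPM in control RS and 1450 to 2140 CPM in control Spc, and the spermatocyte markers to 797 to 824 and 2130 to 2410 CPM. In Smg6-cKO RS these sums were 1620 to 1900 CPM for round spermatid markers, with 10 of 10 lower (median log2 fold change -1.89), and 1080 to 1210 CPM for spermatocyte markers, with 7 of 10 higher and 2 lower (median 0.85). Leydig cell markers summed to 660 to 1360 CPM in Smg6-cKO Spc and 131 to 449 CPM in control Spc, to 37.1 to 384 and 10.3 to 10.9 CPM in RS, and to 46.9 to 497 and 17.2 to 68.4 CPM in CBs, with 3 of 8, 7 of 7 and 7 of 7 tested passing higher. Macrophage markers passed higher for 10 of 12 in Spc, 11 of 12 in RS and 4 of 7 tested in CBs, and lower for 1 in RS, 1 in CBs and 2 in Spc. Of the Sertoli cell markers 7 of 10 passed lower in Smg6-cKO Spc (sums of 249 to 319 and 370 to 819 CPM). In RS 8 of 9 tested passed higher and 1 lower (165 to 296 and 208 to 211 CPM). The lower one, Tjp1, named after its values were seen, was at 81.4 to 83.1 and 144 to 155 CPM. Amh, with 2 to 9 counts in control RS and 31 to 39 in Smg6-cKO RS, could be tested only through the Smg6-cKO libraries. In CBs 2 of 7 tested passed higher (90.9 to 147 and 103 to 111 CPM). Fshr on this list had no count in CBs of Smg6-cKO mice and 1 count in all control CBs. Over all genes, 14% passed higher and 14.1% lower in Spc, 38.4% and 34.3% in RS, and 18.1% and 18.4% in CBs. The part of these marker lists in the members' values was not tested.

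More members passed in round spermatids than in spermatocytes, as was so for all genes. In spermatocytes 2 of 10 members passed, 1 higher (Hsf1) and 1 lower (Hspa1l), where 28.2% of 17321 genes passed in either direction, 14% higher and 14.1% lower. In round spermatids all 10 passed, 4 higher (Hspa1a, Hspa1b, Hspa8 and Hsf1) and 6 lower, where 72.7% of 17492 genes passed, 38.4% higher and 34.3% lower. In CBs 9 members could be tested and 5 passed, 2 higher and 3 lower, where 36.6% of 14051 genes passed, 18.1% higher and 18.4% lower. Their groups did not overlap for 4 members in spermatocytes (48.3% of all genes), 10 in round spermatids (76.9%) and 3 in CBs (39.7%). Among the members the median log2 fold change was 0.02 for spermatocytes, -0.32 for round spermatids and -0.12 for CBs, beside -0.01, 0.11 and 0.07 over all genes tested. When the size had also to reach the study's 1.5 on the log2 scale, 1 member remained in spermatocytes (Hspa1l), where 8.52% of all genes did, 2 in round spermatids (Hspa1l and Hspa1b; 26.4%) and 1 in CBs (Hspa1l; 11.3%). Scaling by library size alone moved the median of all genes in round spermatids from 0.11 to 0.73, and under it 7 members passed higher and 2 lower. The directions of Hspa2, Dnajb1 and Hsp90aa1 in round spermatids turned under that scaling (log2 fold changes of 0.17, 0.42 and 0.17), yet all 3 stayed below the shifted median of all genes.

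**Figure D1:**
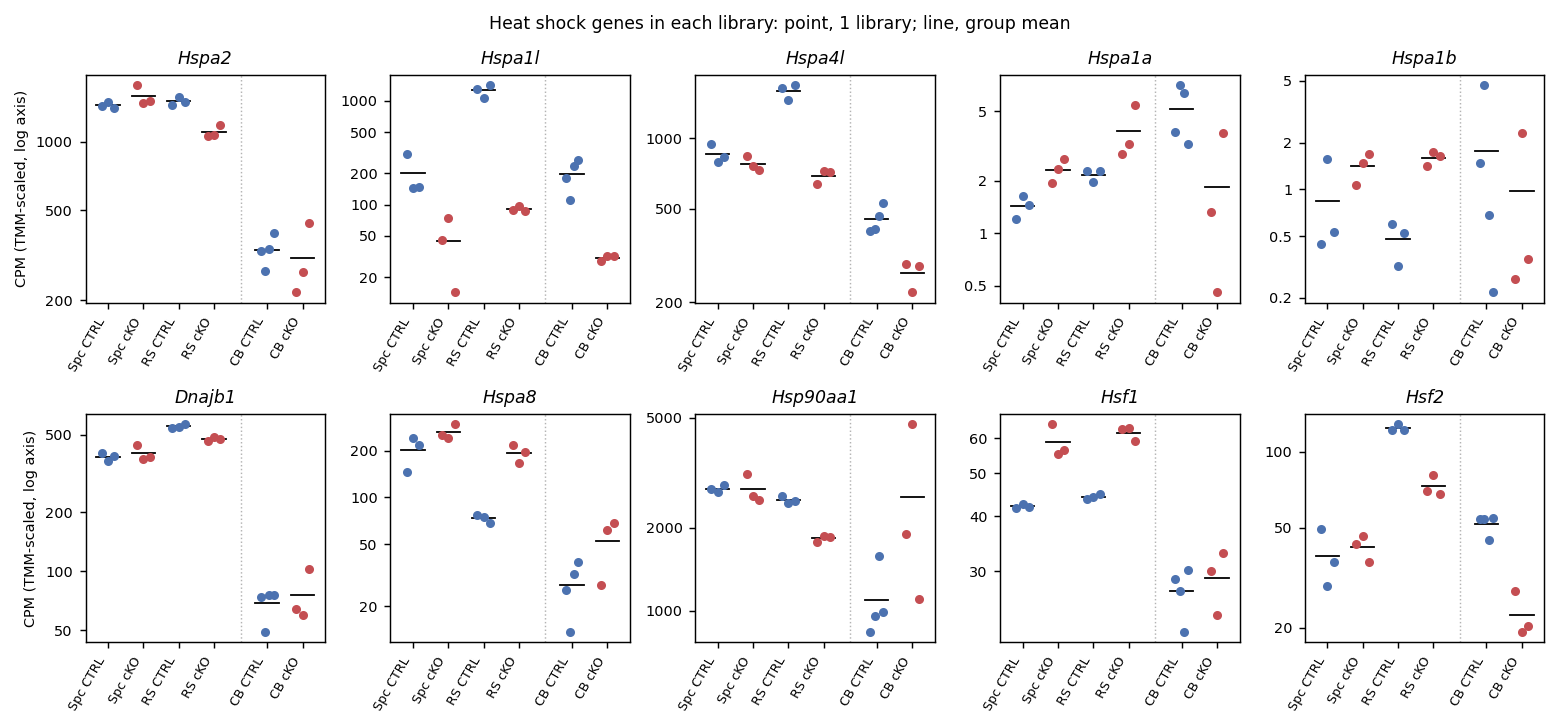
Level of each member in every library (CPM, TMM-scaled, log axis), with blue points for control, red points for Smg6-cKO and a line at the group mean; CB libraries, right of the dotted line, have a scale of their own. Hspa1l sits at 1074 to 1424 CPM in control RS and at 86.6 to 97.1 CPM in Smg6-cKO RS.

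**Figure D2:**
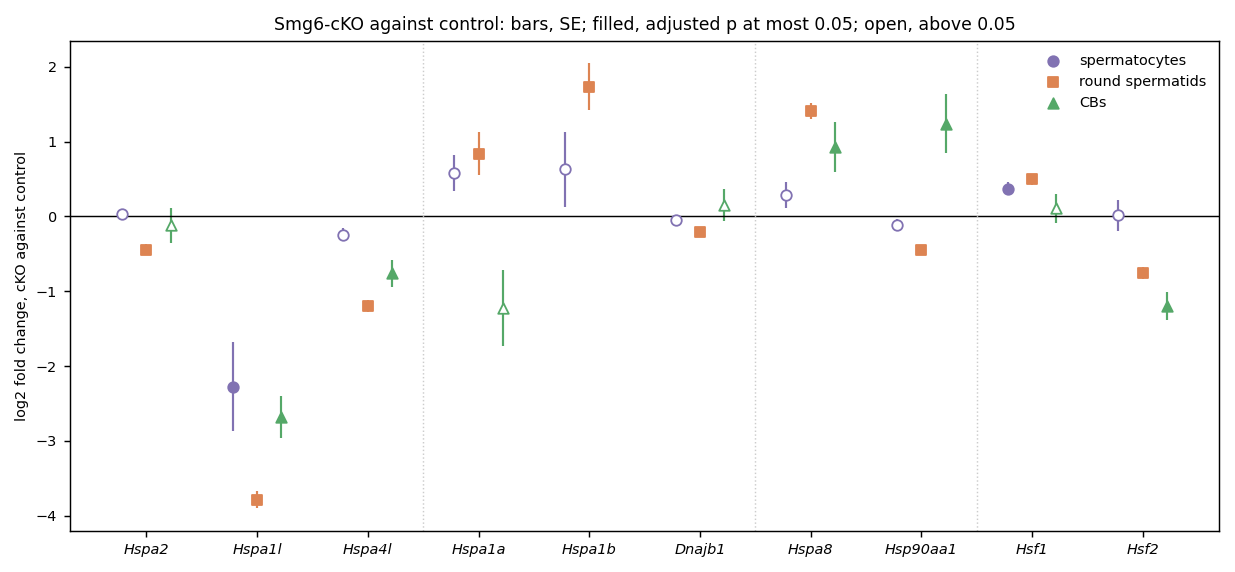
Log2 fold change of each member, Smg6-cKO against control, in spermatocytes (circles), round spermatids (squares) and CBs (triangles), with SE as bars and filled points where the adjusted p was at most 0.05. Hspa1l is lowest in all 3 (-2.28, -3.79 and -2.68); Hspa1b has no point in CBs, where too few libraries reached 10 counts.

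Of the germ cell forms, Hspa1l lost most of its RNA. Its protein is an HSP70 of spermatids. In round spermatids Hspa1l stood at 1291, 1074 and 1424 CPM in the 3 control libraries and at 88.0, 97.1 and 86.6 CPM in the 3 Smg6-cKO libraries. The groups lay far apart, and the Smg6-cKO libraries were close to each other. The fit gave a 13.8-fold lower level (log2 fold change -3.79, SE 0.12, adjusted p = 2.2e-07), and fits that omitted 1 library gave -3.90 to -3.70. In bulk RNA, fewer cells of a stage and less RNA per cell cannot be told apart.

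In spermatocytes Hspa1l was at 307, 146 and 147 CPM in control and 45.3, 74.1 and 14.3 CPM in Smg6-cKO. The groups did not overlap, but control library 1 stood well above the other 2, and the Smg6-cKO libraries were spread widely. The level was 4.85-fold lower (log2 fold change -2.28, SE 0.59, adjusted p = 0.030). Without control library 1 the log2 fold change was -1.80 (adjusted p = 0.063), without control library 3 -2.47 (adjusted p = 0.058) and without Smg6-cKO library 1 -2.26 (adjusted p = 0.10). The 6 fits that omitted 1 library ranged from -2.87 to -1.80, and 3 of them passed. In CBs, Hspa1l counted 182, 110, 235 and 269 CPM in control and 28.7, 32.1 and 32.0 CPM in Smg6-cKO. Here too the groups were apart, with a 6.43-fold lower level (log2 fold change -2.68, SE 0.28, adjusted p = 3.9e-05) that passed with each of the 7 libraries left out.

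Late spermatid RNA moved along with Hspa1l. Markers of late spermatids, among them the protamine gene Prm1 and the transition protein gene Tnp1, summed to 30800 to 40800 CPM in control RS and 2050 to 2100 CPM in Smg6-cKO RS, to 3780 to 7770 and 452 to 1470 CPM in Spc, and to 2460 to 5180 and 513 to 585 CPM in CBs. All 10 passed lower in each of the 3 comparisons, where 34.3%, 14.1% and 18.4% of all genes did. Their median log2 fold changes were -3.97, -2.25 and -2.70, beside -3.79, -2.28 and -2.68 for Hspa1l. Their part in the level of Hspa1l was not tested. Over the 12 cell libraries, the genes outside the members whose log2 level followed Hspa1l most closely were Spata3, Tex37 and Tex35 (Pearson r = 0.9994, 0.9993 and 0.9992, out of 13060 genes with a mean count of at least 100). The 12 points share their 4 groups and their depth, and r is given as a description only.

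Hspa4l, whose protein works as an exchange factor for HSP70, fell less steeply. Round spermatids held 1641, 1462 and 1689 CPM in control and 638, 723 and 719 CPM in Smg6-cKO. The level was 2.28-fold lower (log2 fold change -1.19, SE 0.080, adjusted p = 5.4e-06), with no overlap. In CBs it was 404, 411, 464 and 528 CPM in control and 292, 220 and 285 CPM in Smg6-cKO, a 1.70-fold lower level (log2 fold change -0.76, SE 0.18, adjusted p = 0.0061). In spermatocytes the control range of 793 to 942 CPM overlapped the Smg6-cKO range of 733 to 843 CPM, and the fitted -0.24 on the log2 scale (SE 0.088) had an adjusted p of 0.077, or of 0.042 under scaling by library size (-0.21).

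Hspa2, the HSP70 that spermatocytes need to complete meiosis, changed little. In round spermatids it was at 1461, 1584 and 1507 CPM in control and 1059, 1067 and 1192 CPM in Smg6-cKO. The groups were apart and the level was 1.36-fold lower (log2 fold change -0.44, SE 0.069, adjusted p = 0.00059). In spermatocytes the levels were 1438, 1502 and 1411 CPM in control and 1784, 1491 and 1520 CPM in Smg6-cKO (log2 fold change 0.03, SE 0.072, adjusted p = 0.78). In CBs the ranges were 268 to 396 CPM and 216 to 436 CPM (log2 fold change -0.12, SE 0.23, adjusted p = 0.73). In both of these the groups overlapped. Genes most like Hspa2 over the 12 cell libraries were Ndufv1, Rbakdn and Mta1 (r = 0.9884, 0.9777 and 0.9732).

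Stress-induced HSP70 RNA was scarce throughout. Hspa1a had 52 to 134 counts in spermatocyte libraries and 61 to 275 in those of round spermatids. In round spermatids its level was 2.27, 1.97 and 2.27 CPM in control and 2.85, 3.27 and 5.41 CPM in Smg6-cKO. The groups did not overlap, and Smg6-cKO library 3 was highest. The same library had the highest sums of immediate early genes (880 CPM) and of Leydig cell markers (384 CPM) among the Smg6-cKO RS libraries. The log2 fold change was 0.84 (SE 0.28, adjusted p = 0.027), 0.56 without that library (adjusted p = 0.057), and 0.77 to 0.87 with adjusted p of 0.063 to 0.087 when 1 control library was omitted. Hspa1b, its near copy, was at 0.597, 0.322 and 0.527 CPM in control RS and 1.41, 1.75 and 1.63 CPM in Smg6-cKO RS. It was 3.33-fold higher (log2 fold change 1.73, SE 0.32, adjusted p = 0.0014), from 10 to 20 counts in control and 67 to 83 in Smg6-cKO. With the counts of both genes added, so that it does not matter how reads were split between the pair, the log2 fold change in round spermatids was 1.05 (SE 0.24, adjusted p = 0.0046). Both genes also share stretches of 75 bases with Hspa1l (5.88% of those of Hspa1a and 4.58% of those of Hspa1b), whose counts were far higher, and adding the pair does not settle that split.

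In spermatocytes neither gene passed. Hspa1a was at 1.21, 1.64 and 1.45 CPM in control and 1.94, 2.33 and 2.65 CPM in Smg6-cKO, so the groups did not overlap, and the log2 fold change was 0.58 (SE 0.24, adjusted p = 0.12). Hspa1b overlapped between 0.443, 1.57 and 0.533 CPM in control and 1.07, 1.47 and 1.70 CPM in Smg6-cKO (log2 fold change 0.63, SE 0.50, adjusted p = 0.38). Control library 2 was high, and without it the log2 fold change was 1.42 (adjusted p = 0.040). Both genes added gave 0.60 (adjusted p = 0.18). In CBs Hspa1a was counted 31, 48, 28 and 45 times in control and 5, 1 and 21 times in Smg6-cKO. Scaled to depth this was 3.82, 7.08, 6.38 and 3.25 CPM in control and 1.32, 0.459 and 3.74 CPM in Smg6-cKO. The highest Smg6-cKO library lay above the lowest control library, and the log2 fold change was -1.22 (SE 0.51, adjusted p = 0.074). Without that Smg6-cKO library, number 3, it was -2.32 (adjusted p = 0.016), and the other 6 fits that omitted 1 library did not pass (-0.90 at the smallest). It did not pass with elements included (adjusted p = 0.077), but passed with DESeq2 (-1.32, adjusted p = 0.048), library size scaling (-1.35, 0.013), no count filter (-1.29, 0.028) and summed transcript counts (-1.79, 0.019). The summed transcript counts were 1 to 8 in Smg6-cKO, so there the gene reached the count minimum only through control libraries. Hspa1b had 12, 32, 3 and 3 counts in control CBs and 1, 5 and 2 in Smg6-cKO CBs and was not tested.

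Immediate early genes, which respond to many stimuli within minutes, moved the same way as Hspa1a and Hspa1b in round spermatids. Their summed level was 383 to 880 CPM in Smg6-cKO RS and 63.7 to 84.2 CPM in control RS. There 10 of 10 passed higher, beside 38.4% of all genes, led by Atf3, Fos and Zfp36 (log2 fold changes of 3.54, 3.52 and 3.40). In spermatocytes, where the sums were 354 to 536 and 123 to 383 CPM, 2 of 10 passed higher, beside 14% of all genes. They were Fos and Dusp1 (1.24 and 1.13). In CBs 9 of 10 passed higher, beside 18.1% of all genes, with Fos at 2.60, while Hspa1a had a log2 fold change of -1.22 there. The 11 macrophage markers that passed higher in round spermatids had a summed level of 250 to 419 CPM in Smg6-cKO and 34.8 to 54.5 CPM in control. The remaining marker, Aif1, singled out after its values were seen, was at 73.2 to 106 CPM in Smg6-cKO RS and 467 to 579 CPM in control RS, so that all 12 summed to 356 to 492 and 502 to 633 CPM. The part of either list in the levels of Hspa1a and Hspa1b was not tested. The genes most like Hspa1a over the 12 cell libraries were Ahnak, Pik3r1 and Sh3tc2 (r = 0.9526, 0.9523 and 0.9352).

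Dnajb1, the J-domain partner of HSP70, is induced by heat but was abundant in all libraries. It was at 542, 547 and 565 CPM in control RS and 464, 483 and 477 CPM in Smg6-cKO RS. This narrow gap passed (log2 fold change -0.20, SE 0.053, adjusted p = 0.0088), but not without Smg6-cKO library 1 (-0.12, adjusted p = 0.10) or library 3 (-0.15, adjusted p = 0.12). In spermatocytes the ranges were 365 to 403 CPM and 376 to 442 CPM (log2 fold change -0.05, SE 0.078, adjusted p = 0.64), and in CBs 49.1 to 75.4 CPM and 59.6 to 102 CPM (0.15, SE 0.22, adjusted p = 0.62). Of these 3 genes, 2 were thus higher and 1 lower in round spermatids.

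Of the other cytosolic forms, Hspa8, the constitutive HSP70 of most tissues, was the member with the clearest gain. In round spermatids it was at 77.6, 74.3 and 68.0 CPM in control and 218, 167 and 195 CPM in Smg6-cKO. The level was 2.66-fold higher (log2 fold change 1.41, SE 0.11, adjusted p = 1.1e-05), and fits that omitted 1 library gave 1.36 to 1.55. In spermatocytes it was at 146, 241 and 217 CPM in control and 253, 242 and 295 CPM in Smg6-cKO. Control library 2 lay just under the lowest Smg6-cKO library, and the log2 fold change of 0.28 (SE 0.18) had an adjusted p of 0.26. In CBs the ranges overlapped (13.7 to 38.7 CPM in control, 27.4 to 68.9 CPM in Smg6-cKO), and the log2 fold change of 0.93 (SE 0.34, adjusted p = 0.044) did not pass without any one of control libraries 1, 2 and 3 and Smg6-cKO libraries 2 and 3 (adjusted p = 0.054 to 0.20). It did not pass with elements included (0.90, adjusted p = 0.062) or with summed transcript counts (0.77, adjusted p = 0.10) either.

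Hsp90aa1, the stress-inducible form of cytosolic HSP90, which male germ cells need for meiosis, was at 2600, 2466 and 2493 CPM in control RS and 1775, 1868 and 1845 CPM in Smg6-cKO RS. It was 1.37-fold lower without overlap (log2 fold change -0.45, SE 0.055, adjusted p = 0.00016). In spermatocytes the ranges were 2696 to 2845 CPM and 2522 to 3140 CPM (log2 fold change -0.12, SE 0.081, adjusted p = 0.30). In CBs the gene passed in the other direction, at 838, 956, 1583 and 990 CPM in control and 1891, 4743 and 1101 CPM in Smg6-cKO (log2 fold change 1.24, SE 0.39, adjusted p = 0.025). That rests on Smg6-cKO library 2, without which it was 0.46 (adjusted p = 0.26), and it did not pass without control library 1, 2 or 4 either (adjusted p = 0.064 to 0.077). With DESeq2 it was 1.22 and did not pass (adjusted p = 0.087). When the transcript counts, which leave out reads with several positions, were summed per gene, the log2 fold change in CBs was 0.04 (adjusted p = 0.90).

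The heat shock factors went apart in round spermatids. HSF1 drives the heat response and HSF2 is a factor of the developing germ line. Hsf1 was at 43.7, 44.1 and 44.8 CPM in control RS and 62.9, 63.3 and 59.3 CPM in Smg6-cKO RS, a 1.41-fold higher level without overlap (log2 fold change 0.50, SE 0.073, adjusted p = 0.00043). In spermatocytes it was at 41.6, 42.5 and 42.0 CPM in control and 64.7, 55.3 and 56.5 CPM in Smg6-cKO, again without overlap (log2 fold change 0.37, SE 0.087, adjusted p = 0.022), although it lost its call without control library 2 or 3 or Smg6-cKO library 1 or 3 (adjusted p = 0.050 to 0.078). In CBs it ranged from 21.9 to 30.1 CPM in control and 23.9 to 32.9 CPM in Smg6-cKO (log2 fold change 0.11, SE 0.19, adjusted p = 0.69).

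Hsf2 had the opposite direction. It was at 123, 129 and 122 CPM in control RS and 70.0, 81.1 and 68.0 CPM in Smg6-cKO RS, a 1.69-fold lower level (log2 fold change -0.76, SE 0.084, adjusted p = 9.3e-05). In CBs, 54.0, 54.2, 44.4 and 54.5 CPM in control stood against 27.9, 19.3 and 20.3 CPM in Smg6-cKO, 2.29-fold lower (log2 fold change -1.20, SE 0.19, adjusted p = 0.00051). Neither pair of groups overlapped. In spermatocytes the levels of 49.4, 29.2 and 36.6 CPM in control and 43.2, 46.3 and 36.3 CPM in Smg6-cKO overlapped (log2 fold change 0.02, SE 0.21, adjusted p = 0.96). Under scaling by library size alone the log2 fold change in round spermatids was -0.14 (adjusted p = 0.17), below the median of all genes of 0.73. The genes most like Hsf2 were Shcbp1, Ptprj and Kcnu1 (r = 0.9983, 0.9949 and 0.9947).

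To set the germ cell forms beside the others on one scale, counts per kilobase of exon of the 5 cytosolic HSP70 genes were taken as shares of their sum in each library. In control spermatocytes Hspa2 made up 81.1% ± 3.18 (SD, n = 3), Hspa1l 11.8% ± 5.05 and Hspa8 6.95% ± 1.84. In control round spermatids Hspa2 and Hspa1l were nearly level, at 52.2% ± 4.22 and 46.2% ± 4.32, and Hspa8 was at 1.55% ± 0.164. Smg6-cKO round spermatids had shares more like those of spermatocytes, with 83.3% ± 1.25 for Hspa2, 7.33% ± 0.783 for Hspa1l and 8.98% ± 1.25 for Hspa8, alongside the lower round spermatid and higher spermatocyte marker sums given above, whose part was not tested. In Smg6-cKO spermatocytes the shares were 88.2% ± 1.53, 2.64% ± 1.87 and 9.00% ± 1.40. The stress-induced pair stayed small in all of these, Hspa1a at 0.0662% to 0.255% and Hspa1b at 0.0155% to 0.114% as group means. CBs gave 59.3% ± 5.23 for Hspa2 and 36.6% ± 5.51 for Hspa1l in control (n = 4) and 81.4% ± 3.19 and 9.43% ± 2.54 in Smg6-cKO (n = 3). The ranges of Hspa1l did not overlap between genotypes in any of the 3 sources. The exons of Hspa8 include retained introns, which lowers its share, and with the length of the longest coding transcript it was 14.5% in Smg6-cKO RS and 2.69% in control RS.

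**Figure D3:**
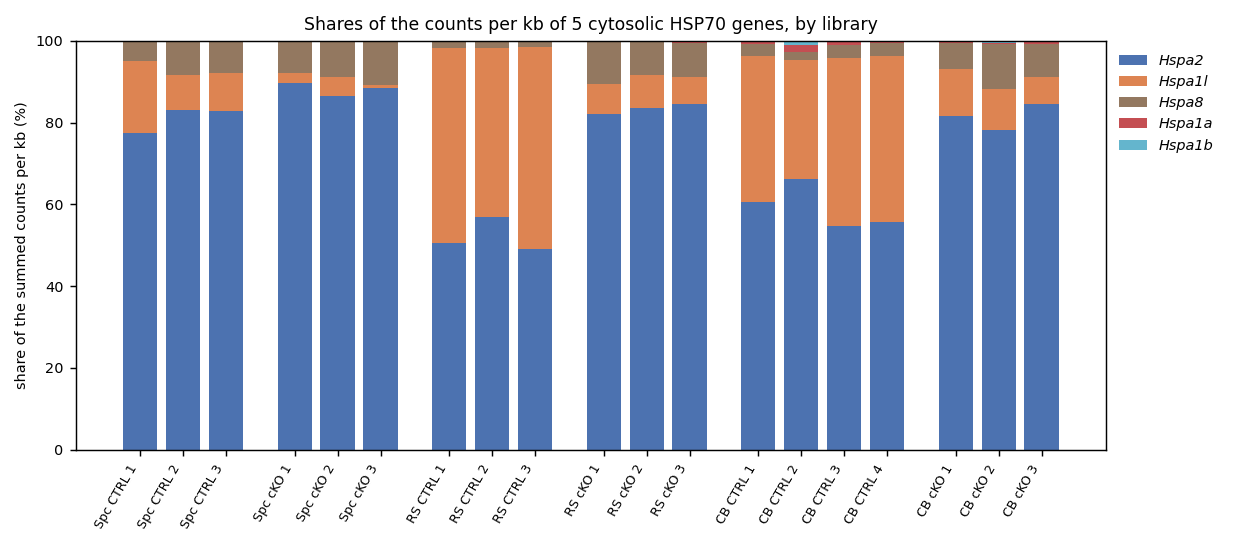
Share of the summed counts per kilobase of 5 cytosolic HSP70 genes in each library (stacked bars, percent, starting at 0). Hspa1l (orange) takes 41.3% to 49.6% in the control RS libraries and 6.56% to 8.13% in the Smg6-cKO ones.

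The step from spermatocytes to round spermatids was compared within each genotype, and both comparisons use the same libraries as those above. In controls 6 of 10 members passed, 4 higher in round spermatids (Hspa1l, Hspa4l, Dnajb1 and Hsf2) and 2 lower (Hspa8 and Hsp90aa1), where 75.9% of 17046 genes passed, 36.2% higher and 39.7% lower. Groups did not overlap for 8 members, against 80% of all genes, and a log2 fold change of 1.5 was reached by 3 (Hspa1l, Hsf2 and Hspa8), against 34%. Hspa1l rose 5.74-fold (log2 fold change 2.52, SE 0.32, adjusted p = 0.00036), Hsf2 2.96-fold (1.56, SE 0.19, adjusted p = 0.00031), Hspa4l 1.70-fold (0.77, SE 0.097, adjusted p = 0.00036) and Dnajb1 1.30-fold (0.38, SE 0.073, adjusted p = 0.0023). Hspa8 was 3.00-fold lower (log2 fold change -1.59, SE 0.18, adjusted p = 0.00025) and Hsp90aa1 1.2-fold lower (-0.27, SE 0.067, adjusted p = 0.0080). Among those that did not pass, Hspa2 was at -0.07 (SE 0.074, adjusted p = 0.43), Hsf1 at -0.06 (SE 0.071, adjusted p = 0.45), Hspa1a at 0.46 (SE 0.21, adjusted p = 0.075) and Hspa1b at -0.95 (SE 0.55, adjusted p = 0.15), or at -1.26 without control spermatocyte library 1 (adjusted p = 0.050). Under scaling by library size alone, where the median of all genes went from -0.08 to -0.54, 5 members passed lower, with Hspa2 at -0.52, Hsf1 at -0.52 and Hspa1b at -1.42, and Dnajb1 turned to -0.07 (adjusted p = 0.32).

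Among Smg6-cKO mice 5 members passed for the same step, 2 higher (Hsf2 and Dnajb1) and 3 lower (Hspa2, Hspa8 and Hsp90aa1), where 45.4% of 17709 genes passed, 18.9% higher and 26.4% lower. Groups did not overlap for 8 members, against 59% of all genes, and no member that passed reached a log2 fold change of 1.5 in size, which 7.06% of all genes did. Hspa1l had a fitted log2 value of 1.01 (SE 0.48, adjusted p = 0.12). It passed without Smg6-cKO spermatocyte library 2 (1.68, adjusted p = 0.015) and with the replicate number as a block (1.26, adjusted p = 0.017). Hspa4l had a fitted value of -0.19 (SE 0.077, adjusted p = 0.076), Hsf2 of 0.78 (SE 0.12, adjusted p = 0.0019), Hspa8 of -0.47 (SE 0.12, adjusted p = 0.014), Hspa2 of -0.55 (SE 0.079, adjusted p = 0.0015) and Hsp90aa1 of -0.61 (SE 0.081, adjusted p = 0.0011). Dnajb1, at 0.22 (SE 0.071, adjusted p = 0.037), did not pass without round spermatid library 2 or 3 or spermatocyte library 3 (adjusted p = 0.083 to 0.097). It did not pass with DESeq2 or the block either (adjusted p = 0.073 and 0.063), and Hspa8 did not under scaling by library size (-0.33, adjusted p = 0.086). Hspa1a was at 0.70 (SE 0.30, adjusted p = 0.093) without overlap, and passed with the block (0.67, adjusted p = 0.038). Hspa1b was at 0.15 (SE 0.29, adjusted p = 0.69) and Hsf1 at 0.05 (SE 0.087, adjusted p = 0.65).

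Whether the effect of genotype differed between the cell types was tested over all 12 cell libraries. The difference (effect in round spermatids minus effect in spermatocytes) passed for 6 of 10 members, 1 higher and 5 lower, where 43.1% of 18171 genes passed, 19% higher and 24.1% lower. Under scaling by library size alone 5 members passed higher and 1 lower: Hspa2, Dnajb1 and Hsp90aa1 turned (0.11, 0.44 and 0.26), Hsf2 did not pass (-0.20, adjusted p = 0.48), and Hsf1 and Hspa1b passed (0.71 and 1.70), while the median of all genes went from -0.13 to 0.58. Size 1.5 was reached by none of the 6 and by 10.9% of all genes. With TMM scaling the difference was largest in size among those that passed for Hspa4l (-1.07, SE 0.12, adjusted p = 0.00027) and Hspa8 (1.01, SE 0.23, adjusted p = 0.0060), followed by Hsf2 (-0.90, SE 0.23, adjusted p = 0.010), Hspa2 (-0.60, SE 0.11, adjusted p = 0.0019), Hsp90aa1 (-0.45, SE 0.11, adjusted p = 0.0066) and Dnajb1 (-0.27, SE 0.099, adjusted p = 0.043). The last passed in 3 of the 12 fits that omitted 1 library, those without spermatocyte library 1 of control or 2 or 3 of Smg6-cKO, and the other fits gave adjusted p of 0.060 to 0.14. It did not pass with DESeq2, elements included, no count filter or summed transcript counts either (adjusted p = 0.096 to 0.13). For Hspa1l the difference was -1.64 with an SE of 0.64 (adjusted p = 0.057). It was -1.59 with DESeq2 (adjusted p = 0.032), -2.09 without control spermatocyte library 1 (adjusted p = 0.018) and -2.06 without Smg6-cKO spermatocyte library 3 (adjusted p = 0.0031). Of the 12 fits that omitted 1 library these 2 passed and the other 10 did not, with -1.05 (adjusted p = 0.16) as the smallest difference, without Smg6-cKO spermatocyte library 2. Hsf1 had a difference of 0.00 (SE 0.11, adjusted p = 0.99), and Hspa1a and Hspa1b of 0.14 and 0.99 (SE 0.37 and 0.63, adjusted p = 0.77 and 0.21).

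Transcript counts were looked at for the 25 annotated transcripts of the members with deposited counts, none of which has the biotype of nonsense-mediated decay. Annotated transcripts without deposited counts were not seen, so this does not say that the members have none of that biotype. For Hsf1, Hsf2 and Hspa4l the transcript seen has 2018, 2604 and 2744 bases, beside 7099, 9606 and 11792 bases of annotated exons. In round spermatids 12 were higher and 12 lower, where 74.9% of 57133 transcripts passed, 38.9% higher and 36% lower, and the remaining transcript, that of Dnajb1, was at -0.12 (adjusted p = 0.057). All 25 had the sign of their gene. The 9 of Hspa8 all rose, with log2 fold changes from 1.42 to 1.68, including the retained-intron forms. Since a read was shared among all overlapping transcripts, these are not separate measurements. The transcript listed for Hspa1l (ENSMUST00000007248, 2472 bases in 2 exons) fell from 39400 ± 5691 to 4276 ± 132 counts (SD, 3 libraries per genotype), a log2 fold change of -3.71 with an SE of 0.11 and an adjusted p of 1.2e-06. In spermatocytes 1 transcript was higher (Hsf1) and 1 lower (Hspa1l), where 28.6% of 57631 passed, 16.1% higher and 12.5% lower. In CBs 18 of the 25 were tested and 5 were lower, of Hspa1l, Hspa4l, Hsf2, Hspa1a and the retained-intron form ENSMUST00000129005 of Hsp90aa1, and 0 were higher, where 35.9% of 30623 passed, 17.8% higher and 18.1% lower. That of Hspa1a had 21 to 40 counts in control CBs and 1 to 8 in Smg6-cKO CBs. It reached the count minimum only through control libraries, so its call is no support for a fall.

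Other chaperone genes were described by lists, as log2 fold changes. Changes in round spermatids that are smaller than the shift of the median of all genes between scalings (0.11 to 0.73) hold only relative to that median. Of 23 further J-domain protein genes, 15 were lower and 3 higher in Smg6-cKO round spermatids (34.3% and 38.4% of all genes), with a median log2 fold change of -0.78 beside 0.11 over all genes. Dnajb8, Dnajb7 and Dnajc5b fell most (-4.95, -2.72 and -2.34), and the same 3 led the list's rise from spermatocytes to round spermatids in controls (2.70, 2.06 and 2.19). In controls 15 of the 23 were higher at that step and 5 lower (36.2% and 39.7% of all genes), with a median of 0.53. Dnajb8 also fell in Smg6-cKO spermatocytes (-3.27, adjusted p = 0.016), where 4 of the list were lower and 3 higher (14.1% and 14% of all genes), and in CBs (-3.18, adjusted p = 2.8e-05), where 10 were lower and 1 higher (18.4% and 18.1% of all genes).

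The counts of the remaining lists in Smg6-cKO round spermatids are given as a description, beside 38.4% of all genes higher and 34.3% lower. Of the rest of the HSP70 and HSP110 family, 3 of 9 were higher and 4 lower, with a median of 0.07. Hyou1 and Hspa5, which work in the endoplasmic reticulum, rose (1.46 and 0.51), as did Hspa14 (1.24), and Hspa12b and Hspa4, the close relative of Hspa4l, fell (-1.85 and -0.66). Of the HSP90 family, the cytosolic Hsp90ab1 rose (0.50) and so did Hsp90b1 (0.27) of the endoplasmic reticulum, unlike Hsp90aa1, and Trap1 did not pass. Among 22 exchange factors and co-chaperones 6 were higher and 10 lower (median -0.19). The exchange factor genes Bag1 and Bag5 fell (-2.50 and -1.32), and Ahsa2 and Unc45a, co-chaperones of HSP90, rose (1.90 and 1.67). Unc45a also rose in spermatocytes (1.90) and CBs (1.51). Of 8 small heat shock protein genes tested, 2 were higher and 2 lower (median 0.22), with Hspb9 of the testis at -1.81 and Hspb6 at 1.13. Hspb8, the highest of the list and named after its value was seen, had 4, 1 and 0 counts in control. In Smg6-cKO it had 22, 44 and 65. It reached the count minimum only through the Smg6-cKO libraries, so its change is not read. Of 11 chaperonin genes, 2 were higher, Hspd1 and Hspe1 of mitochondria (1.11 and 0.77), and 6 lower, with Cct2 of the cytosolic ring at -1.11 (median -0.33). Among 4 other heat shock factor genes and regulators tested, Hsf2bp (0.56) and Hsf5 (0.21) rose and Hsbp1 (-0.43) fell. Of 6 genes for clients and partners of HSPA2, Tnp1, Tnp2 and Nasp fell (-4.73, -4.47 and -0.53), Cdk1 rose (0.45) and 4 in all were lower. Tnp1 and Tnp2 are also on the list of late spermatid markers.

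**Figure D4:**
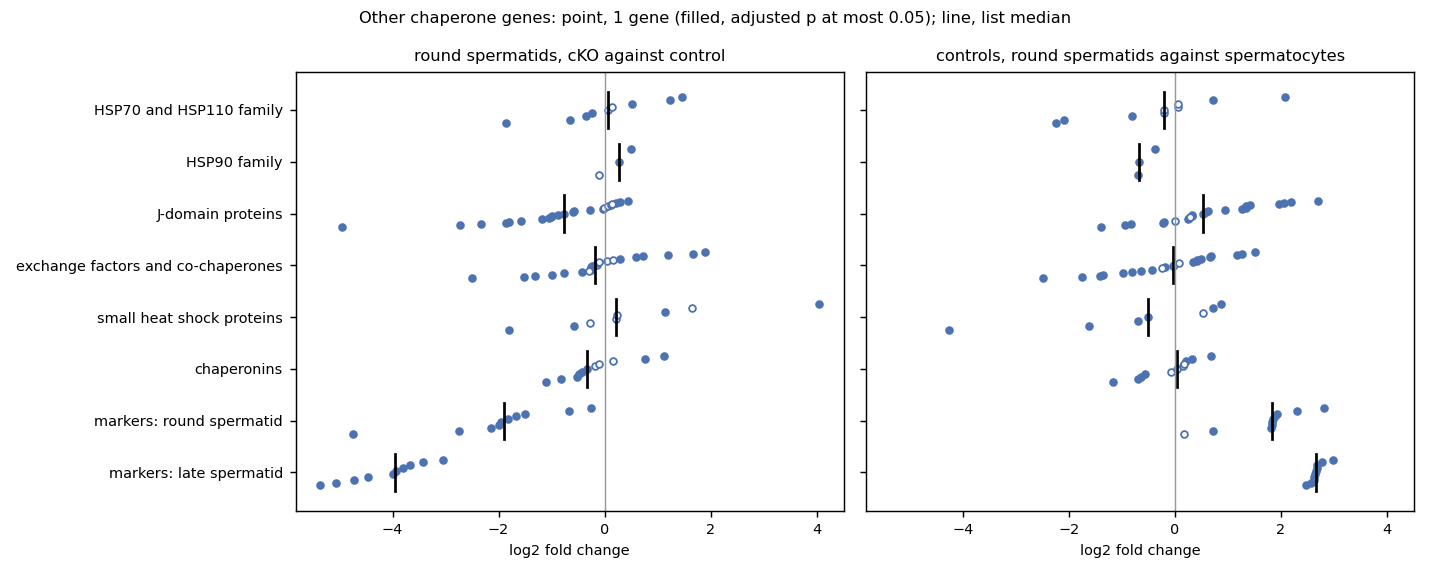
Log2 fold change of each gene of the other chaperone lists and of the spermatid marker lists (points, filled where the adjusted p was at most 0.05), with the list median as a line, in round spermatids of Smg6-cKO against control mice (left) and in round spermatids against spermatocytes of controls (right). The late spermatid markers have medians of -3.97 on the left and 2.66 on the right, and the J-domain genes of -0.78 and 0.53.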

How the data were processed

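Long RNA of Spc, RS and CBs was analysed, not the small RNA tables. The deposited gene counts were made by the authors with TEtranscripts, set to reverse-stranded libraries, from reads trimmed with cutadapt 2.8 and aligned with STAR 2.7.1a to GRCm38. These values are whole-number counts that include reads with several positions. The deposited transcript tables hold estimated counts, partly fractional: featureCounts 2.0.1, as run by the authors, shared a read among overlapping transcripts and left out reads with several positions, and these were rounded. Transposable element rows were left out of library sizes and tests.

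The members and gene lists were chosen with earlier results of these data known. Genes with at least 10 counts, and transcripts with at least 20, in at least 3 of the libraries compared were tested with edgeR 4.0.16 (R 4.3.3, quasi-likelihood test, TMM, all P-values two-sided and adjusted by Benjamini-Hochberg over all genes or transcripts). Spc and RS were fitted per comparison, with all 12 libraries in the test of the difference between cell types, and CBs apart. Each cell sample came from 1 mouse per the labels, but the methods mention several testes for an isolation. All members are named. From the other lists at most the 3 highest and 3 lowest genes that passed without overlap at a mean of at least 100 counts were named, with exceptions stated, and other genes are given where a sentence lists a family. Alternatives were DESeq2 1.42.0, library size scaling, no count filter, elements included, summed transcript counts, summed Hspa1a and Hspa1b counts, the omission of 1 library at a time and a block for the replicate number. Another gene length for the HSP70 shares was chosen after seeing the data. The fits were tested on simulated data: at a log2 fold change of 2, 97% of changed genes were recovered in RS and 83% in Spc, and at 1, 67% and 37%. The changed genes all had mean counts above that of Hspa1b in RS (46), so these shares do not cover it. Whether same-numbered Spc and RS libraries share a mouse is not known here, and since their deviations did not correlate in every pair (-0.335 to 0.625) the block was an alternative only.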

Additional observations from a re-analysis of the deposited data

Results flagged for a closer look

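Among the 10 members in the 4 control CB libraries, 2 had a library far from the others by Dixon's criterion, which chance exceeds in about 1 in 20 groups. Dnajb1 was at 49.1 CPM in library 2 and Hsf2 at 44.4 CPM in library 3 (numbered by order in the count table), both below the other 3 libraries.

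For 6 members the effect of genotype differed between round spermatids and spermatocytes by the interaction term over 12 libraries (edgeR's quasi-likelihood test). The log2 difference was -0.60 for Hspa2, -1.07 for Hspa4l, -0.27 for Dnajb1, 1.01 for Hspa8, -0.45 for Hsp90aa1 and -0.90 for Hsf2. That of Dnajb1 did not pass with DESeq2, elements included, no count filter or summed transcript counts (adjusted p = 0.096 to 0.13), and passed in 3 of 12 fits that omitted 1 library. Under scaling by library size alone those of Hspa2, Dnajb1 and Hsp90aa1 had the other sign.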

How the results depend on the processing

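Of the log2 fold changes of members under all alternatives, 672 kept their direction and side of the threshold, 50 no longer passed, 20 newly passed and 26 turned. Under scaling by library size the all-gene median went from 0.11 to 0.73 in RS, from -0.08 to -0.54 between control RS and Spc, and from -0.13 to 0.58 in the interaction. Under it 2 members were lower in Spc, 7 higher and 2 lower in RS, 5 lower between control RS and Spc, and 5 higher and 1 lower in the interaction. Turned values under it were 0.17 for Hspa2, 0.42 for Dnajb1 and 0.17 for Hsp90aa1 in RS, -0.042 for Hsf1 in CBs, -0.002 for Hspa1a and -0.072 for Dnajb1 between control RS and Spc, and 0.11, 0.44 and 0.26 for Hspa2, Dnajb1 and Hsp90aa1 in the interaction. With DESeq2, 1 member was higher in CBs and 1 between Smg6-cKO RS and Spc, and Hsf1 between control RS and Spc was at 0.005. With elements included 1 member was higher in CBs, and with summed transcript counts 0. The cause was not tested.

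With each library left out, the genes that passed in Spc numbered 2042 to 4234. Members higher in Spc numbered 0 to 1, members lower in Spc 0 to 1, members higher in CBs 0 to 2 and members higher between Smg6-cKO RS and Spc 1 to 3. Member transcripts that passed numbered 0 to 2 higher and 0 to 1 lower in Spc, and 0 to 3 higher and 2 to 5 lower in CBs. Log2 fold changes that turned ranged from -0.10 to 0.009 for Dnajb1, -0.15 to 0.27 for Hsf2 and -0.018 to 0.088 for Hspa2 in Spc, -0.45 to 0.035 for Hspa2 and -0.13 to 0.29 for Dnajb1 in CBs, and -0.042 to 0.092 for Hsf1 and -0.13 to 0.33 for Hspa1a in the interaction.

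With the replicate number as a block, 0 members were higher in Spc, where Hsf1 had an adjusted p of 0.052, and Hspa1l between Smg6-cKO RS and Spc was at 1.26 (adjusted p = 0.017, edgeR's quasi-likelihood test), Hspa1a at 0.67 (0.038) and Dnajb1 at 0.22 (0.063). Dnajb1 in the interaction had an adjusted p of 0.098. Same-numbered libraries did not deviate together in every pair (r = 0.62, 0.35 and -0.07 between Smg6-cKO RS and Spc), so the block was not used, but whether same-numbered Spc and RS libraries share a mouse is not known here. No paired analysis was possible because of the column numbers in CBs, which do not match the sample labels one to one.

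HSP70 shares without length scaling, and with the longest coding transcript, moved for Hspa8 to 4.71% and 4.93% in control CBs, 13.2% and 13.8% in Smg6-cKO CBs, 2.57% and 2.69% in control RS, 13.9% and 14.5% in Smg6-cKO RS, 10.9% and 11.4% in control Spc and 13.9% and 14.5% in Smg6-cKO Spc. Those of Hspa2 moved to 77.7% and 77.0% in Smg6-cKO CBs, 79.2% and 78.6% in Smg6-cKO RS and 83.6% and 82.9% in Smg6-cKO Spc, and with the coding transcript to 77.6% in control Spc. Without length scaling Hspa1l was at 6.51% in Smg6-cKO RS and Hspa1a at 0.0759% in control RS. Low counts and shared sequence both limit Hspa1a and Hspa1b.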
